A study of Homo sapiens with 12 samples.

Results

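The nucleoporins, importins and exportins described here were 46 genes, read by 63 of the 47319 probes of an Illumina bead array and taken from 20045 named genes in all. They were chosen by gene symbol: 22 nucleoporin genes of the pore, 18 import genes (IPO, KPNA, KPNB1 and TNPO) and 6 export genes (XPO1, XPO4, XPO5, XPO6, XPO7 and XPOT). The brightest probe stood for each gene. The cells were KMS-11, an established line from a human multiple myeloma, kept in 1% FBS for 24 h before treatment. Each of the 4 groups held 3 arrays: DMSO alone for 6 h, 6 µM NSC12 for 6 h, DMSO alone for 12 h and 6 µM NSC12 for 12 h. NSC12 is a small molecule known for binding fibroblast growth factors and keeping them from their receptors. Nothing in the labels says whether replicates were separate cultures, so p-values measure the spread between these arrays, which may be technical.

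The nuclear pore complex is the channel through the nuclear envelope, built of nucleoporins arranged in rings, a central channel, a nuclear basket and cytoplasmic filaments. Importins carry proteins with nuclear localization signals inward, and exportins carry proteins and RNAs outward. Receptors of both kinds cross the pore by touching the flexible repeats of its channel nucleoporins, and the small GTPase RAN sets their direction. XPO1, the main protein exportin, is the target of a drug class used against multiple myeloma.

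Mean array intensity was lowest in replicate 3 of DMSO at 6 h (347) and highest in its replicate 2 (634), and the arrays of a group correlated at 0.992 to 0.996. Levels below are quantile-normalized log2 intensities, changes are log2 differences between NSC12 and DMSO with the standard error (SE) of the limma fit, and a gene was called at an adjusted p under 0.05 over all 20045 genes. The background level was 6.97, the 95th percentile of olfactory receptor genes, and 3 members (NUP210L, KPNA5 and KPNA7) lay below it in every group. All 8 genes listed as plasma cell markers lay above background on average, with CD38 only just so. They were SDC1, IRF4, PRDM1, XBP1, TNFRSF17, CD38, MZB1 and FGFR3, a fibroblast growth factor receptor and the brightest of them (13.9). Of the markers of other cell types, CD2 alone of 6 for T and NK cells, CD14 and FCGR3A of 6 for myeloid cells and PECAM1 alone of 6 for stroma and endothelium exceeded it, the highest at 7.23. The summed level of each of these 3 other lists overlapped between NSC12 and DMSO arrays at both times. Among their genes the myeloid FCGR3A alone was called, higher at 12 h (0.30, limma adjusted p = 0.0351) with arrays at 7.27, 7.16 and 7.36 in DMSO and 7.36, 7.65 and 7.66 in NSC12, groups that only just cleared each other. Its second probe, at a mean level of 7.03, gave -0.02 at 12 h, and the part of FCGR3A in the results was not tested. The 8 plasma cell markers summed to between 88.42 and 88.95 on the NSC12 arrays at 12 h and to between 90.8 and 91.71 on the DMSO arrays, and the part of this shift in the results below was not tested. PRDM1, the largest fall of the list at 12 h (-0.98), gave -0.57, 0.67 and 0.38 on its dimmer probes, so its direction is uncertain. In bulk RNA of this kind, fewer cells of a type and less RNA per cell cannot be told apart.

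At 12 h, transport receptors were mostly lower with NSC12 and the genes of the pore itself moved both ways, as genes at large did. Of the 46 genes, 22 fell and 8 rose, so that 65.2% were called, where 28.9% of all genes and 49.3% of the 11456 genes above background were called. Falls made up 47.8% of the members, against 15.2% of all genes and 26.1% of genes above background. Rises made up 17.4%, against 13.6% and 23.2%, a share that lies between those backgrounds. The median change of the members was -0.20, and that of all genes was -0.001. At least 1.41-fold lower (log2 0.5) were 11 members and at least 1.41-fold higher were 2.

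The export, import and pore classes held different shares of falls at 12 h. Of the 6 export genes chosen by symbol, 4 fell (66.7%) and 0 rose by limma. On their brightest probes 0 were higher at an unadjusted p under 0.05 as well. Of 18 import genes, 10 fell (55.6%) and 2 rose, and of 22 pore genes, 8 fell (36.4%) and 6 rose (27.3%). Of all genes above background, 26.1% fell and 23.2% rose, so movement both ways is not particular to the pore. As the mean of probes, where KPNA2, TNPO1, NUP35 and NUP98 lost their calls and TNPO2 gained one, 4 export, 9 import and 7 pore genes fell and 0, 2 and 5 rose. The class medians on the brightest probes were -0.27 for export, -0.25 for import and -0.02 for pore. Under median centring in place of quantile normalization, 2 export, 8 import and 5 pore genes fell and no import gene rose, and over all genes 1483 rose and 2604 fell, in place of 2734 and 3050. The classes were not tested against each other, since genes are not replicates of a condition.

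**Figure D1:**
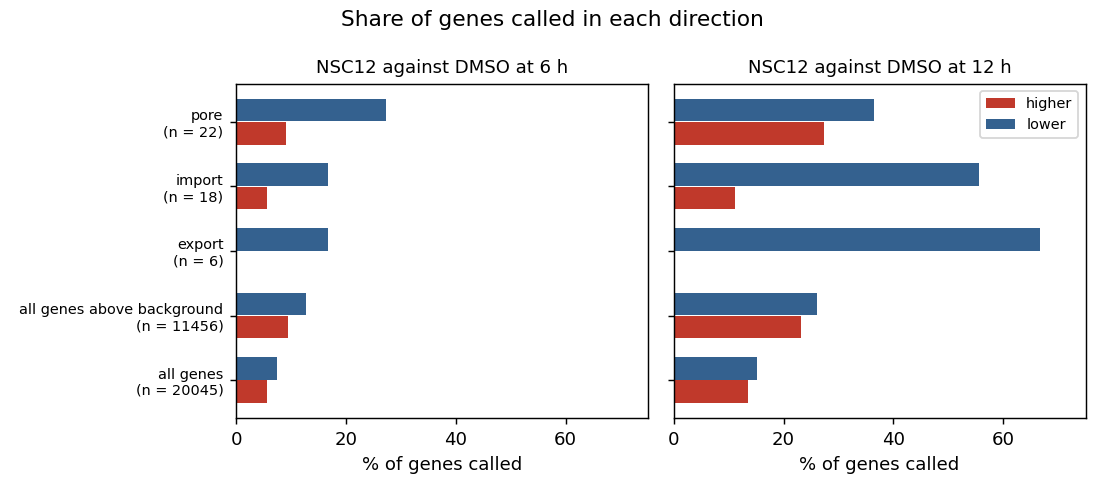
Share of genes called higher (red) or lower (blue) with NSC12 at 6 h and 12 h, in percent of the genes of each class, beside all genes above background and all genes. At 12 h the share that fell was 66.7% of export genes, 55.6% of import genes and 36.4% of pore genes, against 26.1% of genes above background.

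**Figure D2:**
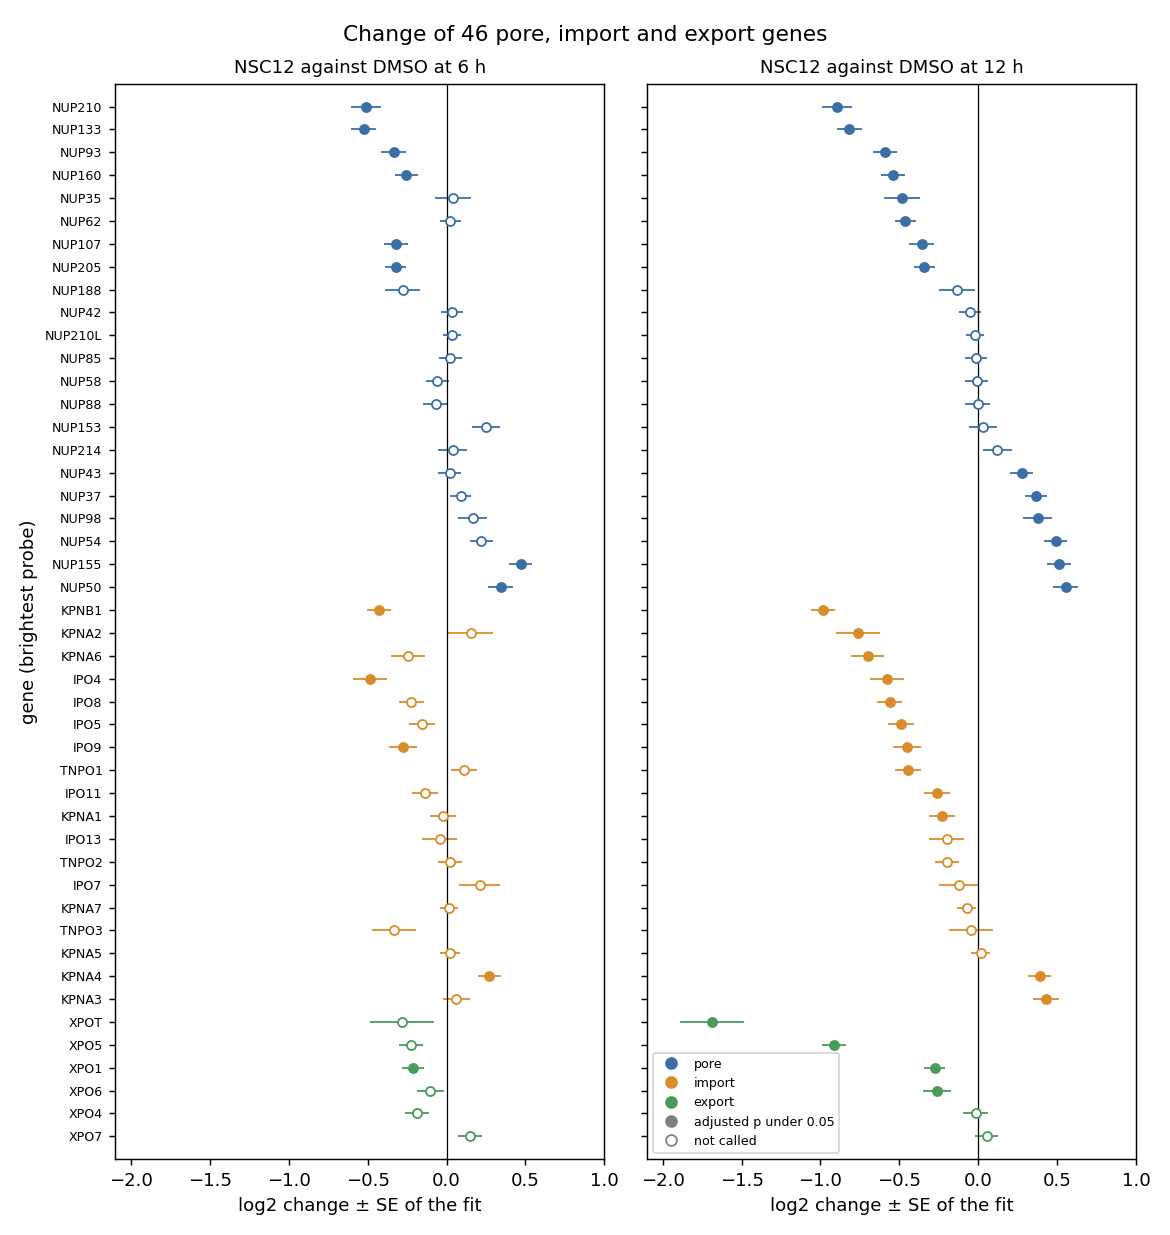
Log2 change ± SE with NSC12 for each of the 46 genes at 6 h and 12 h, grouped by class and ordered within a class by the change at 12 h. Filled points passed an adjusted p of 0.05. The 6 filled pore points to the right of 0 at 12 h are NUP50, NUP155, NUP54, NUP98, NUP37 and NUP43.

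Among the exportins, XPOT, which carries tRNA to the cytoplasm, had the largest fall of the 46 genes. It read 9.07, 9.68 and 10.25 on the DMSO arrays and 8.22, 7.72 and 7.98 on the NSC12 arrays at 12 h. Every NSC12 array lay below every DMSO array, although the DMSO arrays themselves were widely spread. The change was -1.69 ± 0.20 (limma adjusted p = 8.81e-07), 3.22-fold lower. At 6 h XPOT read 10.29, 9.71 and 10.39 in DMSO and 9.85, 9.68 and 10.03 in NSC12, the groups overlapped and it was not called (-0.28 ± 0.20, adjusted p = 0.463).

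XPO5, which exports precursor microRNAs, was the other exportin to fall by nearly a log2 unit at 12 h. Its DMSO arrays read 9.80, 9.88 and 9.89 and its NSC12 arrays 9.03, 8.90 and 8.90. The groups lay far apart with little spread within either (-0.91 ± 0.08, limma adjusted p = 6.08e-09). At 6 h its levels were 9.91, 9.96 and 9.94 in DMSO and 9.80, 9.57 and 9.76 in NSC12, lower on every NSC12 array but not called (-0.23 ± 0.08, adjusted p = 0.0604).

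XPO1, the exportin for proteins with leucine-rich export signals, changed less. Its levels at 12 h were 11.08, 11.05 and 11.16 in DMSO and 10.90, 10.72 and 10.84 in NSC12, with no overlap (-0.28 ± 0.07, limma adjusted p = 0.00335). At 6 h it read 11.39, 11.35 and 11.42 against 11.21, 11.12 and 11.20 (-0.21 ± 0.07, adjusted p = 0.0471). That 6 h call stood close to the threshold and was lost without any 1 of the 6 arrays at 6 h, without DMSO 12 h replicate 2 or NSC12 12 h replicate 3, with array brightness as a covariate, and under median centring. The 12 h call was also lost under median centring (-0.25, adjusted p = 0.405). XPO6, which exports actin, fell at 12 h (-0.26 ± 0.09, adjusted p = 0.0268), a call lost without DMSO 12 h replicate 1 or any 1 of the NSC12 12 h arrays and under median centring. XPO4, an exportin of the translation factor eIF5A, and XPO7 were not called at 12 h (-0.02 ± 0.08 and 0.05 ± 0.08).

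The promoters of the exportins with the largest falls and of the nucleoporins with the largest rises are shown so that genes that moved in opposite ways can be compared. Each runs 5′ to 3′ on the gene's strand, from 250 bases before to 50 bases after the annotated start, from RefSeq on GRCh38.p14. XPOT lies at chr12:64404142-64404441 (+), XPO5 at chr6:43575989-43576288 (-), NUP50 at chr22:45163675-45163974 (+) and NUP155 at chr5:37371057-37371356 (-). Capitals mark matches to the motifs named in the next paragraph.
XPOT: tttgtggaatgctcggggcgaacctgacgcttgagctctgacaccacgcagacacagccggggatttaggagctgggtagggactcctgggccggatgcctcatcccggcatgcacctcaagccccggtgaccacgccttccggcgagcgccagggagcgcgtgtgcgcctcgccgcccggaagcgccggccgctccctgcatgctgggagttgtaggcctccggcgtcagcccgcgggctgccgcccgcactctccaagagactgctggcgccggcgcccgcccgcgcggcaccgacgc
XPO5: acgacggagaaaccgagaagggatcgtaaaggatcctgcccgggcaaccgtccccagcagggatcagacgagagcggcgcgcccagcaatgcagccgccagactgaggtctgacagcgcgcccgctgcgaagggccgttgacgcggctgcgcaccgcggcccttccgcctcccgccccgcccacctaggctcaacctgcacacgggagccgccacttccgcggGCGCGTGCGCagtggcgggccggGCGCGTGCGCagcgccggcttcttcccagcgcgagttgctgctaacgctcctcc
NUP50: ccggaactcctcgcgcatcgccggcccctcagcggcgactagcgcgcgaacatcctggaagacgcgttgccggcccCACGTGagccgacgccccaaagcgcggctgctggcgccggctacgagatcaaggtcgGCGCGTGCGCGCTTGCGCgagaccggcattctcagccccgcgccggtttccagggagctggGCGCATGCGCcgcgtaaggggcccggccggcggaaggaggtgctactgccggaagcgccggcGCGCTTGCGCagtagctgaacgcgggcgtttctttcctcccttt
NUP155: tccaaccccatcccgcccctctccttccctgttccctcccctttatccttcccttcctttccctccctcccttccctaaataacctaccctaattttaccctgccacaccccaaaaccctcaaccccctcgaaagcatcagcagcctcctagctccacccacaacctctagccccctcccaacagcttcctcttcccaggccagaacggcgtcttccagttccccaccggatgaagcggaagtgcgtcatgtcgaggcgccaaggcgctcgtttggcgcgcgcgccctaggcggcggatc

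Motifs were searched on both strands: the heat shock element core GAANNTTC, the E-box CACGTG, the core of the ATF4 composite site TGATGNAA, the ETS core CCGGAAGT and the NRF1 core, which reads GCGC, any base, then TGCGC. XPO5 held the NRF1 core at positions -27 and -4 from the start, and NUP50 held it at -117, -109, -56 and 7, the first pair overlapping. NUP50 also held an E-box, at -174. The windows of XPOT and NUP155 held none of the 5 motifs. A promoter was listed for 40 of the 46 genes, and those of NUP43, KPNA4, KPNA5, KPNA7, KPNB1 and XPO7 were not used here. The heat shock element core was in 2 of the 21 listed promoters of genes that fell at 12 h (NUP160 and TNPO1) and in 0 of the 6 of genes that rose, where 4.78% of promoters of genes above background and 6.87% of all 27305 promoters held it. The ETS core was in 17.5% of the 40 members' promoters, against 9.04% and 4.44%, and the NRF1 core likewise in 17.5%, against 12.1% and 6.28%. The E-box was in 6 of the 40 (15.0%, against 10.6% and 7.43%), and the ATF4 core in NUP153 alone (2.5%, against 1.71% and 3.67%). These matches describe the letters of the windows and were not tested.

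Among import genes, KPNB1, or importin beta, the receptor that pairs with the importin alpha adaptors, fell most. At 12 h it read 12.49, 12.26 and 12.39 in DMSO and 11.37, 11.45 and 11.37 in NSC12. The NSC12 arrays lay close together and far below the DMSO arrays, with means of 12.38 ± 0.12 and 11.40 ± 0.04 (SD, n = 3). The change was -0.98 ± 0.08 (limma adjusted p = 1.77e-09), 1.98-fold lower. It had already fallen at 6 h, from 12.57, 12.76 and 12.57 to 12.22, 12.08 and 12.33 (-0.43 ± 0.08, adjusted p = 0.000437), and median centring removed that call (-0.48, adjusted p = 0.0701).

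Of the 7 importin alpha genes, the adaptors that bind the localization signal, 3 fell at 12 h, 2 rose and 2 lay below background. KPNA6 fell from 10.76, 10.43 and 10.38 to 9.83, 9.85 and 9.78 (-0.70 ± 0.11, limma adjusted p = 1.69e-05), with no overlap between groups. KPNA1 fell as well (-0.23 ± 0.08, adjusted p = 0.0367), a call lost without DMSO 12 h replicate 1, 2 or 3, without NSC12 12 h replicate 1 or 2, and under median centring. KPNA3 and KPNA4, close relatives of each other, both rose. KPNA3 went from 9.11, 9.05 and 9.25 to 9.59, 9.52 and 9.59 (0.43 ± 0.08, adjusted p = 0.000296), and KPNA4 from 10.70, 10.65 and 10.79 to 11.04, 11.04 and 11.22 (0.39 ± 0.07, adjusted p = 0.000241). Neither pair of groups overlapped, and both calls were lost under median centring, KPNA3 (0.33, adjusted p = 0.175) and KPNA4 (0.42, adjusted p = 0.0975) alike. KPNA4 was also the only import gene that rose at 6 h (0.27 ± 0.07, adjusted p = 0.0153), which did not hold under median centring or without DMSO 6 h replicate 2 or NSC12 6 h replicate 1.

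KPNA2, the importin alpha most abundant in dividing cells, gave opposite answers on its 2 probes. Its brightest probe read 10.30, 10.56 and 10.68 in DMSO and 10.23, 9.40 and 9.63 in NSC12 at 12 h, with NSC12 replicate 1 only just below the DMSO arrays (-0.76 ± 0.14, limma adjusted p = 0.000193). The other probe read 8.40, 8.45 and 8.43 in DMSO and 8.63, 9.07 and 8.96 in NSC12, higher on every NSC12 array (0.46). As the mean of both probes KPNA2 was not called (-0.15, adjusted p = 0.181), so the direction of this gene is uncertain.

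Of the 7 IPO genes, 5 fell at 12 h, and IPO7 and IPO13 were not called (-0.12 ± 0.13 and -0.20 ± 0.11). IPO4, which imports histones, fell from 9.52, 9.20 and 9.05 to 8.66, 8.70 and 8.68 (-0.58 ± 0.11, limma adjusted p = 0.000219). It also fell at 6 h, from 9.40, 9.29 and 9.71 to 8.95, 8.94 and 9.06 (-0.48 ± 0.11, adjusted p = 0.00355). Its NSC12 arrays agreed closely at both times while the DMSO arrays spread more widely. At 12 h IPO8 changed by -0.56, IPO5, a carrier of ribosomal proteins and histones, by -0.49, IPO9, a carrier of histones, by -0.45, and IPO11 by -0.26. The IPO11 call was lost under median centring and without DMSO 12 h replicate 3 or NSC12 12 h replicate 1. IPO9 also passed at 6 h (-0.28 ± 0.09, adjusted p = 0.0445), a call lost without any 1 of DMSO 6 h replicates 1 and 3, the NSC12 6 h arrays, DMSO 12 h replicate 2 and NSC12 12 h replicate 2, and under median centring, cyclic loess, the brightness covariate and the replicate block.

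Of 3 transportins, which import RNA-binding proteins, TNPO1 alone was called at 12 h, and its probes disagreed. The brightest fell from 9.46, 9.58 and 9.51 to 9.11, 8.94 and 9.17 (-0.44 ± 0.08, limma adjusted p = 0.000209). A second probe of similar brightness read 8.79, 9.27 and 10.20 in DMSO and 9.98, 9.93 and 10.07 in NSC12, where the groups overlapped (0.57), another, dimmer one gave 0.15, and the mean of probes was not called. TNPO2 was just short of the threshold (-0.20 ± 0.08, adjusted p = 0.0524) with no overlap between its groups, and TNPO3, the carrier of SR splicing factors, was at -0.05 ± 0.14.

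**Figure D3:**
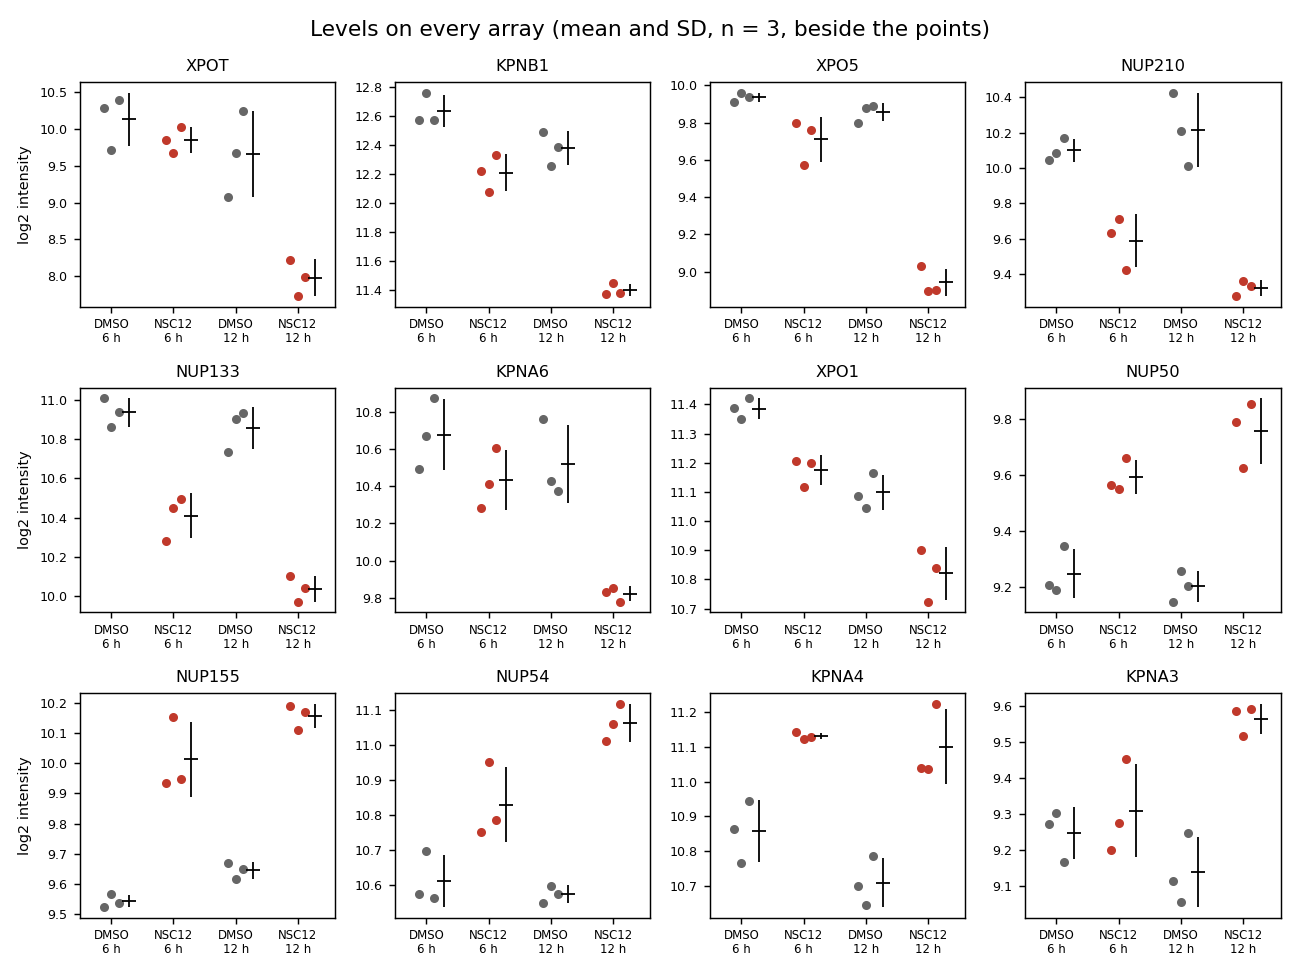
Log2 intensity of 12 members on every array, grey for DMSO and red for NSC12, with the mean and SD of 3 arrays beside the points. Each panel has its own axis, which does not start at 0. XPOT fell to between 7.72 and 8.22 at 12 h, whereas NUP50 and NUP155 lay above their DMSO arrays at both times.

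Within the pore, the Y complex and the inner ring make up the scaffold, and genes of both moved in either direction at 12 h. Of 6 genes of the Y complex, which builds the outer rings, NUP133, NUP160 and NUP107 fell at both times, NUP37 and NUP43 rose at 12 h and NUP85 was not called. NUP133 had the largest change of these. It read 10.74, 10.90 and 10.93 in DMSO and 10.10, 9.97 and 10.04 in NSC12 at 12 h (-0.82 ± 0.08, limma adjusted p = 4.22e-08). At 6 h it went from 11.01, 10.86 and 10.94 to 10.28, 10.45 and 10.50 (-0.53 ± 0.08, adjusted p = 5.72e-05). No DMSO array overlapped an NSC12 array at either time. NUP160 changed by -0.25 at 6 h and -0.54 at 12 h, and its 6 h call was lost under median centring, with the brightness covariate and without DMSO 6 h replicate 1 or 2 or NSC12 6 h replicate 1 or 2. NUP107 changed by -0.32 and -0.36, and both calls were lost under median centring. NUP37 changed by 0.37 at 12 h, also lost under median centring, and NUP43 by 0.28. NUP43 read close to background, at 7.10 ± 0.08 in DMSO and 7.37 ± 0.01 in NSC12 (SD, n = 3), where changes are compressed.

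Of 5 inner ring genes, NUP93, NUP35 and NUP205 fell at 12 h, NUP155 rose and NUP188 was not called (-0.14 ± 0.11). NUP93, which anchors the central channel, went from 10.92, 10.77 and 10.65 to 10.11, 10.23 and 10.24 (-0.59 ± 0.08, limma adjusted p = 2.76e-06), and at 6 h from 10.82, 10.86 and 10.90 to 10.46, 10.53 and 10.58 (-0.34 ± 0.08, adjusted p = 0.0043), the latter call lost under median centring. NUP205 fell by like amounts at 6 h (-0.32 ± 0.07, adjusted p = 0.0016) and 12 h (-0.34 ± 0.07, adjusted p = 0.000287), and lost both calls under median centring. NUP155 went the other way at both times. At 12 h it rose from 9.67, 9.62 and 9.65 to 10.19, 10.11 and 10.17 (0.51 ± 0.08, adjusted p = 1.27e-05), and at 6 h from 9.53, 9.57 and 9.54 to 9.93, 10.15 and 9.95 (0.47 ± 0.08, adjusted p = 0.000115). Its DMSO arrays agreed closely at each time and never reached an NSC12 array, and its second, dimmer probe gave 0.22 at 6 h and 0.17 at 12 h. Under median centring the 6 h rise was not called (0.29, adjusted p = 0.433).

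NUP35 fell on its brightest probe (-0.48 ± 0.11, limma adjusted p = 0.00209), from 8.74, 8.91 and 8.94 to 8.72, 8.12 and 8.29. NSC12 replicate 1 lay only just below the DMSO arrays. The other probe of NUP35 gave 0.20, and the mean of both was not called, so its direction is uncertain as well.

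The channel and the basket, which touch the receptors as they pass, held both rises and falls. NUP62, the central channel protein, fell from 13.01, 13.14 and 13.27 to 12.69, 12.61 and 12.74 at 12 h (-0.46 ± 0.07, limma adjusted p = 1.09e-05), with -0.30 on its second probe, a call lost under median centring. Its partner NUP54 rose, from 10.55, 10.60 and 10.57 to 11.01, 11.06 and 11.12 (0.49 ± 0.07, adjusted p = 1.48e-05), with 0.45 on its second probe. NUP58, which joins these in the channel, read close to background and was not called (-0.01 ± 0.07). In the basket, NUP50, a cofactor of import, rose from 9.15, 9.26 and 9.20 to 9.79, 9.62 and 9.85 at 12 h (0.55 ± 0.08, adjusted p = 1.06e-05). NUP50 rose at 6 h too, from 9.21, 9.19 and 9.35 to 9.56, 9.55 and 9.66 (0.34 ± 0.08, adjusted p = 0.00482), not called after median centring (0.16, adjusted p = 0.741). Its other 2 probes lay below background, and averaging all 3 removed the 6 h call and left a 12 h change of 0.16, adjusted p = 0.0442. NUP153, the other basket gene, was not called at 6 h (0.25 ± 0.09, adjusted p = 0.0718) or at 12 h (0.03 ± 0.09, adjusted p = 0.872).

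NUP98, a mobile repeat nucleoporin known for leukemia fusions, rose from 7.70, 7.72 and 7.75 to 8.17, 7.97 and 8.16 at 12 h (0.38 ± 0.09, limma adjusted p = 0.00283). Its other probes gave -0.10 and 0.02, and it was not called as the mean of probes (0.10, adjusted p = 0.318) or under median centring (0.28, adjusted p = 0.104). The 3 genes of the cytoplasmic side, NUP88, NUP214 and NUP42, were not called by limma at either time, with 0 at an unadjusted p under 0.05 and changes from -0.07 to 0.12. NUP210, a transmembrane nucleoporin, had the largest fall of the pore genes. It read 10.43, 10.21 and 10.01 in DMSO and 9.27, 9.36 and 9.33 in NSC12 at 12 h (-0.89 ± 0.10, adjusted p = 1.65e-07). At 6 h it went from 10.04, 10.09 and 10.17 to 9.63, 9.71 and 9.42 (-0.51 ± 0.10, adjusted p = 0.000585), without overlap at either time.

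**Figure D4:**
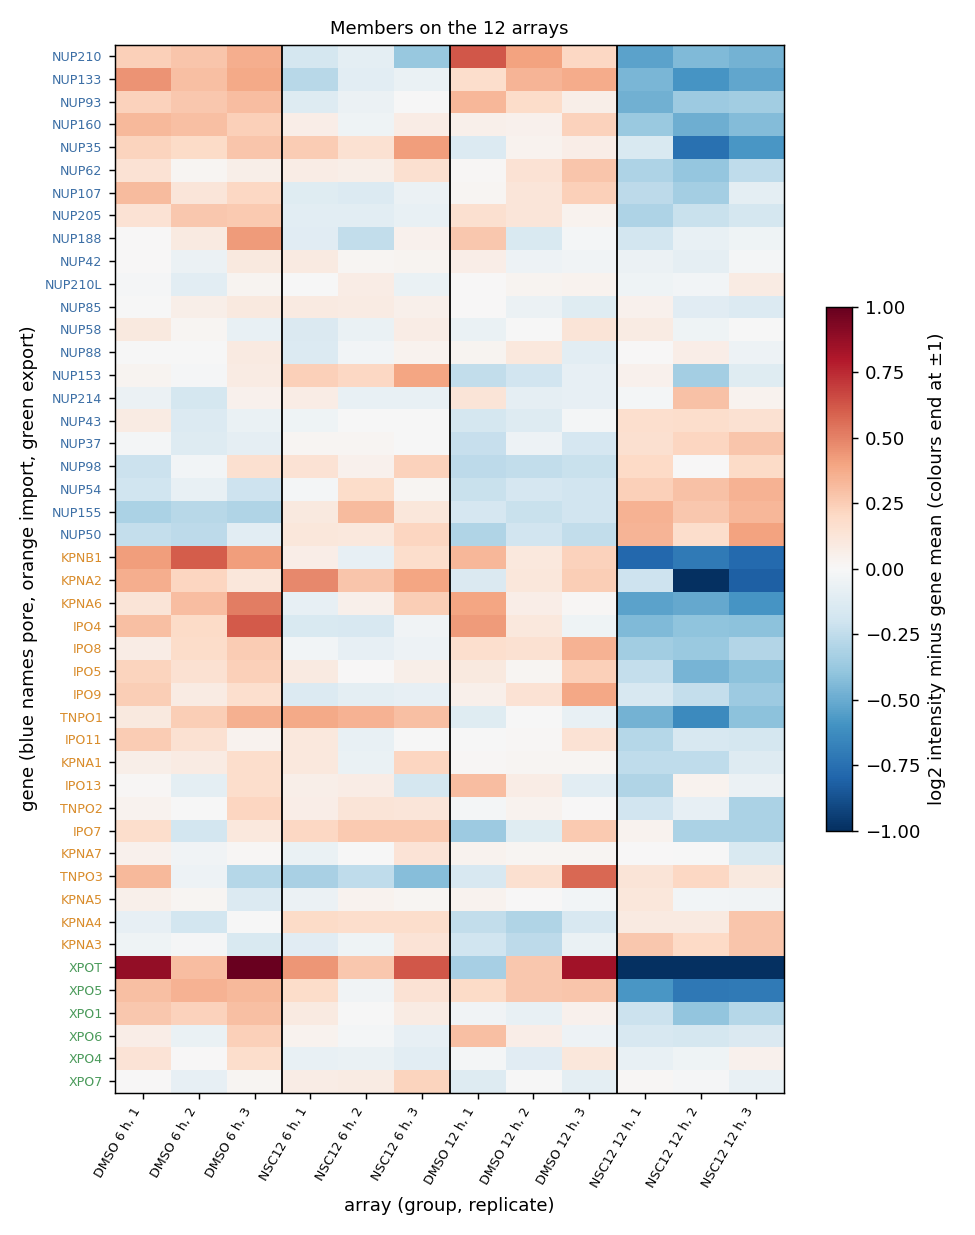
Log2 intensity of the 46 genes on the 12 arrays, each row centred on its own mean, with red above and blue below it. The 3 arrays of NSC12 at 12 h are blue for XPOT, XPO5, KPNB1, NUP210 and NUP133 and red for NUP50, NUP155 and NUP54, and the rows of NUP42, NUP88 and KPNA5 stay pale on all arrays.

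Fewer members were called at 6 h: 10 fell and 3 rose (28.3% of 46), where 13.1% of all genes and 22.2% of genes above background were called. The falls (21.7%) compare with 7.51% and 12.8%, and the rises (6.52%) with 5.56% and 9.4%. Of the pore genes, 6 fell and 2 rose, of the import genes 3 fell and 1 rose, and of the export genes XPO1 fell. All 13 were called in the same direction at 12 h, which is 43.3% of the 30 called then. The like share over all genes is not given here, so this count is not a trait particular to the members. The comparisons at 6 h and 12 h use different arrays but share 1 estimate of the spread per gene from all 12 arrays. Their calls are therefore not independent. The class medians at 6 h were -0.20 for export, -0.03 for import and 0.03 for pore, the last of which turned to -0.12 under median centring, -0.001 once array brightness was a covariate, and -0.01 without DMSO 6 h replicate 2. Under median centring NUP133, NUP210 and IPO4 alone were called at 6 h, all 3 lower and 0 higher, and over all genes 276 were higher and 1194 lower, in place of 1114 and 1505. The group means of array brightness at 6 h were 521 ± 153 in DMSO and 428 ± 61.6 in NSC12 (SD, n = 3), and with brightness as a covariate 9 members were lower and 3 higher.

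The change differed between the times for 7 members, all more negative at 12 h: XPOT, KPNA2, XPO5, KPNB1, TNPO1, NUP35 and NUP62. They make up 15.2% of the members, where 10.4% of all genes and 17.8% of genes above background were called for this difference in either direction. More negative were 5.77% of all genes and 9.92% of genes above background, and more positive 4.65% and 7.92%. By limma 0 members changed more positively, with 4 more positive and 15 more negative at an unadjusted p under 0.05, where 2065 and 2290 of all genes, and 1851 and 2073 of the 11456 above background, passed that mark. XPOT differed by -1.41 ± 0.29 (adjusted p = 0.0026), XPO5 by -0.69 ± 0.11 (adjusted p = 0.000333) and KPNB1 by -0.56 ± 0.11 (adjusted p = 0.00194). The differences of KPNA2, TNPO1 and NUP35 rested on the brightest probe and were not called as the mean of probes. Under median centring XPOT alone kept the call, with 277 of all genes more positive and 87 more negative in place of 933 and 1156, and with cyclic loess 12 members were lower and 1 higher. XPO5 lost its call under median centring although its estimate hardly moved (-0.66), and KPNB1 gave -0.37.

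In DMSO alone, 0 members were called between 6 h and 12 h by limma, while 8 were lower and 0 higher at an unadjusted p under 0.05, where 995 of all genes were lower and 1026 higher, and 791 and 830 of the 11456 above background. At the adjusted threshold, of all genes 0.399% were called (0.249% higher, 0.15% lower), and of genes above background 0.698% (0.436% higher, 0.262% lower). The members' median was -0.08 and that of all genes 0.003. XPOT had the largest difference (-0.47 ± 0.20, adjusted p = 0.426), and it was called lower once DMSO 12 h replicate 3 was left out. XPO1 was lower on every DMSO array at 12 h than at 6 h and was not called (-0.29 ± 0.07, adjusted p = 0.0824). These values share their DMSO arrays with the NSC12 comparisons.

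More than 1 probe read 12 of the members, and for 9 of them at least 2 probes lay above background. In 3 of those, KPNA2, NUP35 and TNPO1, another probe moved against the brightest one at 12 h, both at an unadjusted limma p under 0.05. The pairs for NUP62, NUP54 and NUP155 had the same sign. XPO4 gave -0.02 and 0.31 on its 2 brighter probes, NUP42 -0.05 and 0.16, and NUP98 0.38, -0.10 and 0.02.

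**Figure D5:**
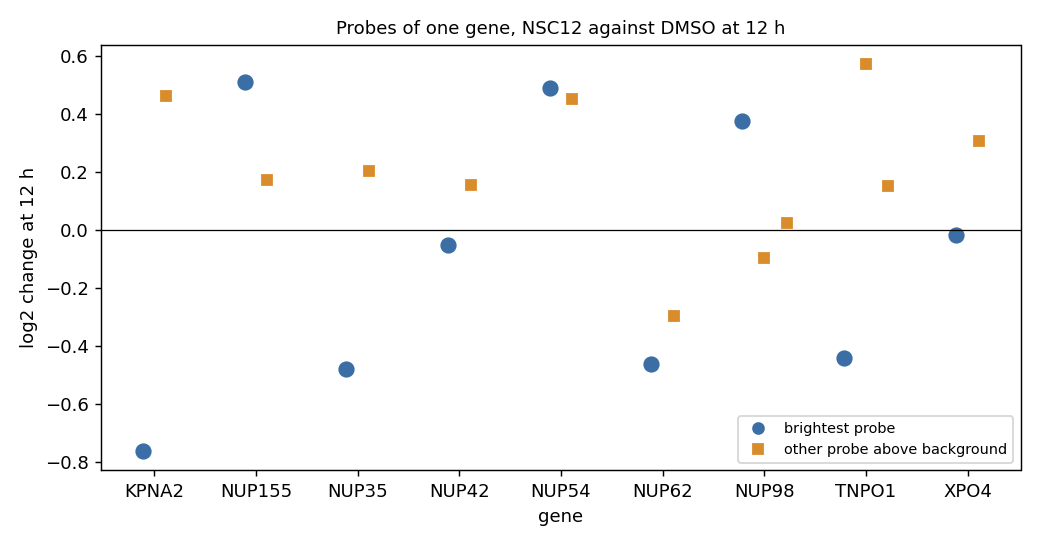
Log2 change with NSC12 at 12 h on each probe of the members that have at least 2 probes above background. The probes of KPNA2, NUP35, TNPO1, NUP98, NUP42 and XPO4 lie on both sides of 0, and those of NUP54, NUP62 and NUP155 on one side.

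Genes that work beside these members moved in both directions at 12 h. Of 11 further pore components, 3 rose (27.3%) and 4 fell (36.4%), where 23.2% of genes above background rose and 26.1% fell. SEC13, shared by the Y complex and the COPII coat, went from 9.71, 9.55 and 9.43 to 10.36, 10.49 and 10.38 (0.85 ± 0.10, limma adjusted p = 5.3e-07). TPR, the filament of the basket, changed by 0.78 (averaged over its probes, 0.36) and NDC1, a membrane anchor of the pore, by 0.75, both higher on all 3 NSC12 arrays. POM121C, which has near-identical copies, SEH1L, AHCTF1 and GLE1 were the 4 lower on their brightest probe. SEH1L gave -0.38 on that probe, 0.23 on one of nearly equal brightness and -0.79 on a dimmer one, so its direction is uncertain.

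Of 10 genes listed for the RAN cycle, some by a related name only, 2 rose and 3 fell at 12 h. RAN itself (0.05) and its exchange factor RCC1 (0.11) were not called. These 5 of 10 are close to the 49.3% called among genes above background. RCC2, which is not that exchange factor, fell from 12.69, 12.74 and 12.71 to 11.40, 11.34 and 11.45 (-1.32 ± 0.07, limma adjusted p = 1.14e-12). RANGAP1, which makes RAN hydrolyse GTP, fell from 11.69, 11.67 and 11.64 to 10.95, 10.92 and 10.88 (-0.75 ± 0.06, adjusted p = 3.37e-09). NUTF2, which returns RAN to the nucleus, rose (0.72 ± 0.11, adjusted p = 1.41e-05). The arrays of the 2 groups did not overlap for any of these 3 genes.

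Of 4 other karyopherin genes, RANBP6 (0.39) and SNUPN (0.31), the adaptor for spliceosomal snRNPs, rose, 2 of 4 against 23.2% of genes above background, and 0 fell, both calls lost under median centring. CSE1L, an exportin outside the symbol rule, was not called at 12 h. Its 2 probes gave 0.18 and 0.19, with unadjusted limma p of 0.0169 and 0.0118. Of 23 mRNA export genes, 9 rose (39.1%) and 8 fell (34.8%), against 23.2% and 26.1% of genes above background. NXT2 (0.73) and NXT1 (0.68), partners of the mRNA export receptor, rose, as did THOC1 (0.66) and THOC2 (0.46) of the THO complex. THOC3 of the same complex (-1.09 ± 0.08, adjusted p = 6e-10) fell, as did MCM3AP of TREX-2, from 10.49, 10.63 and 10.48 to 9.44, 9.62 and 9.55 (adjusted p = 4.99e-09). NCBP2 of the cap-binding complex fell on its brightest probe (-1.05 ± 0.08, adjusted p = 7.81e-10) and was not called as the mean of probes (-0.14, adjusted p = 0.107). Its other probes gave 0.46 and 0.17. ALYREF, also counted among the 8 that fell, gave -0.94 on its brightest probe and 0.51 on its other, so the direction of both genes is uncertain. Of 5 listed cargo adaptors, cargoes and related factors, 3 rose (against 23.2% of genes above background) and 0 fell. The 3 were PHAX, the export adaptor of U snRNAs (0.86), EIF5A, a cargo of XPO4 (0.62), and LTV1, which acts in small ribosomal subunit maturation (0.42, lost under median centring). NMD3 of this list was called higher at 6 h (0.42) and was not called at 12 h (0.09).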

How the data were processed

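RNA from KMS-11 cells was measured on 12 Illumina bead arrays, 3 in each of 4 groups taken from the labels. The deposited values are linear intensity per probe, from 69.5 to 25534, with no detection p-value; the authors' processing is not given in the sources used here, and per the values the arrays were not normalized and background was left in. Values were floored at 16 (0 were below it), quantile-normalized over all 47319 probes and taken to log2. Probes with 1 symbol in the platform annotation were used (30111; 8 had several and 17200 none). The brightest probe stood for a gene, and changes at low levels are compressed by background.

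limma 3.58.1 (R 4.3.3) was fitted to all 20045 genes with a mean per group and an intensity trend, and p-values were Benjamini-Hochberg adjusted at 0.05. Each time's NSC12 arrays were set against its DMSO arrays, the changes at both times against each other, and DMSO at 12 h against 6 h. Genes named were up to 6 called rises and 6 called falls at each time and 3 each way for the difference, the largest above background, plus XPO1, KPNB1, KPNA2, NUP98 and NUP153, and 3 per related list at most; others are named where a count or a class called for them, after their values were seen. The members and lists were chosen with earlier results of these data known. Precision is limited by the few arrays. The fit was tested on simulated data.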

Additional observations from a re-analysis of the deposited data

Results flagged for a closer look

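The change with NSC12 differed between 12 h and 6 h, by limma's test of the difference itself over all genes, for 7 members, which is 15.2% of them, between the 10.4% of all genes and the 17.8% of genes above background called. The difference was -1.41 ± 0.29 for XPOT (adjusted p = 0.0026), -0.91 ± 0.20 for KPNA2 (0.00438), -0.69 ± 0.11 for XPO5 (0.000333), -0.56 ± 0.11 for KPNB1 (0.00194), -0.55 ± 0.12 for TNPO1 (0.00352), -0.52 ± 0.16 for NUP35 (0.0398) and -0.49 ± 0.10 for NUP62 (0.00187), all on the log2 scale with 3 arrays in each group. Under median centring XPOT alone of the 7 was called, and XPO5 (-0.66, adjusted p = 0.166), KPNB1 (-0.37, adjusted p = 0.587), KPNA2 (-0.82, adjusted p = 0.0769), TNPO1, NUP35 and NUP62 were not. KPNA2, TNPO1 and NUP35 lost the call as the mean of their probes, and NUP35 also lost it without DMSO 6 h replicate 1 or 2, NSC12 6 h replicate 1 or 3, DMSO 12 h replicate 2 or 3, or NSC12 12 h replicate 2 or 3. No further result was picked out.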

How the results depend on the processing

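Median centring changed most: it called 0 members higher and 3 lower at 6 h, 4 higher at 12 h and 1 lower for the difference between times. By class it gave 0 higher and 2 lower pore genes, 0 higher and 1 lower import gene and 0 lower export genes at 6 h, with medians of -0.115, -0.173 and -0.33 in that order. At 12 h it gave 5 lower pore genes, 0 higher import genes with a median of -0.363, and 2 lower export genes. It kept 3 of 13 calls at 6 h and 19 of 30 at 12 h. Its limma p-values did not simply follow its changes. XPOT at 12 h went from -1.69 (adjusted p = 8.81e-07) to -1.8 (1.94e-19), and KPNB1 from -0.98 (1.77e-09) to -0.85 (3.26e-05). The estimated spread thus differed from the main fit as well, so a lost call need not mean a changed estimate. The cause was not tested. Testing only genes above background called 5 members higher at 6 h and 2 higher for the difference, 4 pore genes higher and 2 export genes lower at 6 h, and left import medians of -0.09 at 6 h and -0.352 at 12 h, since fewer genes were tested and 2 dim import genes dropped out. The mean of probes gave 1 higher for the difference, 1 pore gene higher and 2 export genes lower at 6 h, cyclic loess 1 higher and 12 lower for the difference, and brightness as a covariate 0 export genes lower at 6 h. Signs turned for NUP98's difference with the mean of probes (-0.07), KPNA2 at 6 h with median centring (-0.01) and the mean of probes (-0.04), XPO1's difference with median centring (0.08), and NUP153 at 12 h with median centring (-0.02), cyclic loess (-0.01) and leaving out 1 array (-0.06 to 0.13), none of them called. Leaving out each array in turn gave 2 to 4 higher and 7 to 12 lower members at 6 h, 8 higher and 19 to 23 lower at 12 h, 0 to 1 higher and 6 to 9 lower for the difference, and 0 to 1 lower in DMSO over time. It gave 0 to 1 higher and 2 to 5 lower import genes, 0 to 1 lower export genes and a pore median of -0.012 to 0.034 at 6 h. Deviations of same-numbered arrays correlated at -0.486 to 0.186 and those of differently numbered arrays at -0.206 to 0.458. These ranges overlap and cannot settle whether equal replicate numbers marked paired samples. The fit with the replicate block called 3 higher and 9 lower members at 6 h (IPO9 was lost), 8 and 22 at 12 h and 0 and 7 for the difference. Normexp background correction and the replicate block left all 38 single-gene values on their side of the threshold. Signal near background limits NUP43, NUP58, NUP98 and the 3 members below it.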
